A study of Mus musculus with 3 samples.

Results

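CD8 T cells are the lymphocytes that recognise peptides on MHC class I and can kill the cell that shows them. The cells described here are those of 1 library of mouse vascular tissue that carried the CD8 co-receptor transcripts, and there were 315 of them among 11225 cells kept in 3 libraries. A cell was taken as a member when it held at least 500 UMIs (unique molecular identifiers, each standing for 1 captured transcript), at least 300 genes and at most 15% mitochondrial UMIs. It also had to hold at least 2 of the T cell receptor complex genes Cd3e, Cd3d, Cd3g, Trac and Trbc2 and at least 1 UMI of Cd8a or Cd8b1, and no UMI of Cd4, Cd79a, Ms4a1 or Csf1r. These 11 genes chose the cells, so their levels are a description and not a result.

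The libraries came from WT mice and were all labelled 3 weeks, with 1 library for each of 3 groups: vehicle (labelled Control), sunitinib (labelled TKI) and sunitinib with Yoda1 (labelled Yoda1). Sunitinib blocks receptor tyrosine kinases such as those of the VEGF and PDGF families, and Yoda1 opens the stretch-gated channel PIEZO1. The label of the third library names Yoda1 by itself, and the library was read as the group given both compounds because the series lists no other group with Yoda1. How many animals a library pooled, and what the 3 weeks count from, are not given in the sources used here. Each group is 1 library, so no test between groups was made, cells are not replicates of a treatment, and every interval is a 95% interval for counting error only.

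The 315 members made up 10.1% (9.03 to 11.2) of the 3130 cells kept in the library with both compounds. In the vehicle library 1 of 3947 kept cells met the rule, or 0.0253%, and it held 14131 UMIs, among them 4 of Acta2, 1 of Myh11 and 2 of Lef1. In the sunitinib library 0 of 4148 kept cells met it, which allows a share of up to 0.0723%. The library with both compounds also held 1131 B cells and 216 CD4 T cells by mirror rules, against 4 and 5 B cells and no CD4 T cell in the vehicle and sunitinib libraries. Lymphocytes were thus found almost wholly in 1 library. Treatment, library and the piece of tissue taken cannot be told apart for that difference. The 3 libraries held between 28364203 and 73901343 UMIs, the library with the members being the shallowest. Everything below describes cells within it.

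Naive CD8 T cells circulate through lymph nodes and keep a programme held by the transcription factors LEF1 and TCF1 (gene Tcf7), with homing receptors such as CCR7. After antigen or strong cytokine signals they can become memory cells, which in mice gain LY6C, CD44, CXCR3 and the interleukin-15 receptor chain IL2RB and store the chemokine transcript Ccl5. Effector cells add perforin and granzymes, and resident cells in tissue keep CD69 with the integrins CD103 (Itgae) or CD49a (Itga1). The lists of genes used for these states are given with the number of genes that could be measured.

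T cell genes that the rule did not use were found in most members. Lck, the kinase of the T cell receptor, was found in 90.8% of members and 7.25% of B cells. The receptor chain gene Cd247 was found in 84.1% and 1.33%, and the adaptor gene Lat in 75.6% and 0.884%. A median of 8364 UMIs (lowest 2592, highest 27238) and 2345 genes were read per member. Of the 5 receptor complex genes that chose the cells, 242 members held all 5, 63 held 4, 8 held 3 and 2 sat at the limit of 2, while a further 2 cells just outside held 1 and 8 held none. The CD8 chains were counted 777 times for Cd8a and 1682 times for Cd8b1. The median member held 7 UMIs of the 2 together and the highest 25, and 14 members entered with 1 UMI. Both chains were found in 260 members, Cd8b1 alone in 47 and Cd8a alone in 8. The CD8 alpha-beta form, which needs the Cd8b1 product, is that of conventional CD8 T cells, whereas alpha alone also occurs on innate-like cells. Another 12 T cells held Cd4 beside a CD8 gene and were left out, as were 11 with Cd79a or Ms4a1 and 1 with Csf1r. A further 185 T cells held neither Cd4 nor a CD8 gene, at a median of 6617 UMIs, and how many of these were CD8 T cells cannot be told from the counts.

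Defining genes of other cell types were mostly at or near 0. The summed level of 10 myeloid genes was 10.7 CPM (the share of the summed UMIs of these cells, scaled to counts per 1000000), with 4 of the 10 at 0 (Csf1r by the rule, and Adgre1, Cd14 and S100a9), and that of 7 smooth muscle genes was 16.7 CPM, none of the 7 at 0. The 6 fibroblast genes summed to 13.5 CPM with 1 at 0. The 12 B cell genes summed to 196 CPM, of which Ighm gave 137, with 2 at 0 by the rule. The 6 endothelial genes summed to 134 CPM, none at 0, most of it Pecam1, which naive T cells also express, while Cdh5 was found in 2 members. The 9 natural killer cell genes summed to 106 CPM, none at 0. Of these, Eomes was found in 10.5% of members, Klrk1 in 7.30%, Klre1 in 3.81% and Tyrobp in 3.17%. Ncr1, which defines natural killer cells, was found in 1 member. Red cell transcripts were present throughout. Hbb-bs was found in 74.0% of members, 75.0% of CD4 T cells and 71.1% of B cells, a like share in every type. Haemoglobin made up 1.07% of all UMIs of the members, although the median member held 0.0260%. A few cells held most of it: 6 members were above 1%, the highest at 56.6%. None of those 6 held Ccl5, and leaving them out kept the shares, counts of genes and single-gene ratios that were recomputed without them within their main intervals or 1.5 times the main count.

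Levels of single genes were ranked without mitochondrial, ribosomal protein, haemoglobin, immunoglobulin, receptor segment and sex-linked genes, Ccl5 and those of the rule. The highest of the rest were housekeeping and cytoskeletal transcripts. After Gm42418 (59267 CPM), a gene model that overlaps ribosomal RNA sequence, and Cmss1 (10641 CPM) came Tpt1 (9928 CPM), Malat1 (9041 CPM) and Tmsb4x (7061 CPM). Ribosomal protein genes took a median of 34.5% of a member's UMIs, compared with 29.1% in CD4 T cells and 22.2% in B cells.

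Naive genes marked nearly every CD8 T cell. Lef1 was found in 301 of 315 members (95.6%, 92.7 to 97.5) at a summed level of 946 CPM, with a median of 8 UMIs in the cells that held it and 43 in the highest. Tcf7 was found in 86.7% (82.4 to 90.2), at 322 CPM. Both genes were as widespread in the CD4 T cells of the library, with Lef1 in 85.2% (853 CPM) and Tcf7 in 83.3% (392 CPM). B cells, which do not use this pair of factors, held Lef1 in 3.09% and Tcf7 in 0.265% of cells; this is the level that free RNA in the suspension can give. When every cell was thinned to 1500 UMIs, Lef1 was found in 70.5% of members, 65.7% of CD4 T cells and 0.728% of B cells. Tcf7 was then found in 36.5% of members and 38.0% of CD4 T cells.

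Receptors of lymph node traffic and survival were widespread too. Ccr7 was found in 70.2% of members (64.8 to 75.2; 210 CPM) and in 53.2% of the CD4 T cells of the same library. B cells also express it, and held it in 53.8%. At 1500 UMIs per cell Ccr7 was found in 25.1% of members, 23.6% of CD4 T cells and 29.4% of B cells. Il7r, the receptor for the survival cytokine interleukin-7, was found in 78.1% of members, 72.7% of CD4 T cells and 0.973% of B cells. Klf2, a factor that maintains S1pr1, was found in 94.0% of members and S1pr1, the receptor with which lymphocytes leave lymphoid tissue, in 74.3%. In CD4 T cells Klf2 and S1pr1 were each found in 75.9%. Counted per cell, 291 of 315 members (92.4%) held at least 2 of Ccr7, Lef1 and Tcf7, 191 of them all 3, and 2 held none; this trio was set after the values were seen. That count depends on depth: at 1500 UMIs per cell, 38.7% of members and 41.2% of CD4 T cells held at least 2.

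Other genes of the naive list divided the cells further. Dapl1 was found in 61.9% of members (376 CPM), 42.1% of CD4 T cells and 0.177% of B cells. Actn1, an actin cross-linker, was found in 56.2% of members and 51.4% of CD4 T cells. Igfbp4 was found in 44.4% of members (96.9 CPM) and 44.9% of CD4 T cells (186 CPM). Ccr9, the receptor for the gut and thymus chemokine CCL25, was found in 28.6% (23.6 to 33.9) of members but in 0.926% of CD4 T cells and 1.41% of B cells. It was low where found, with a median of 1 UMI and a highest of 7.

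**Figure D1:**
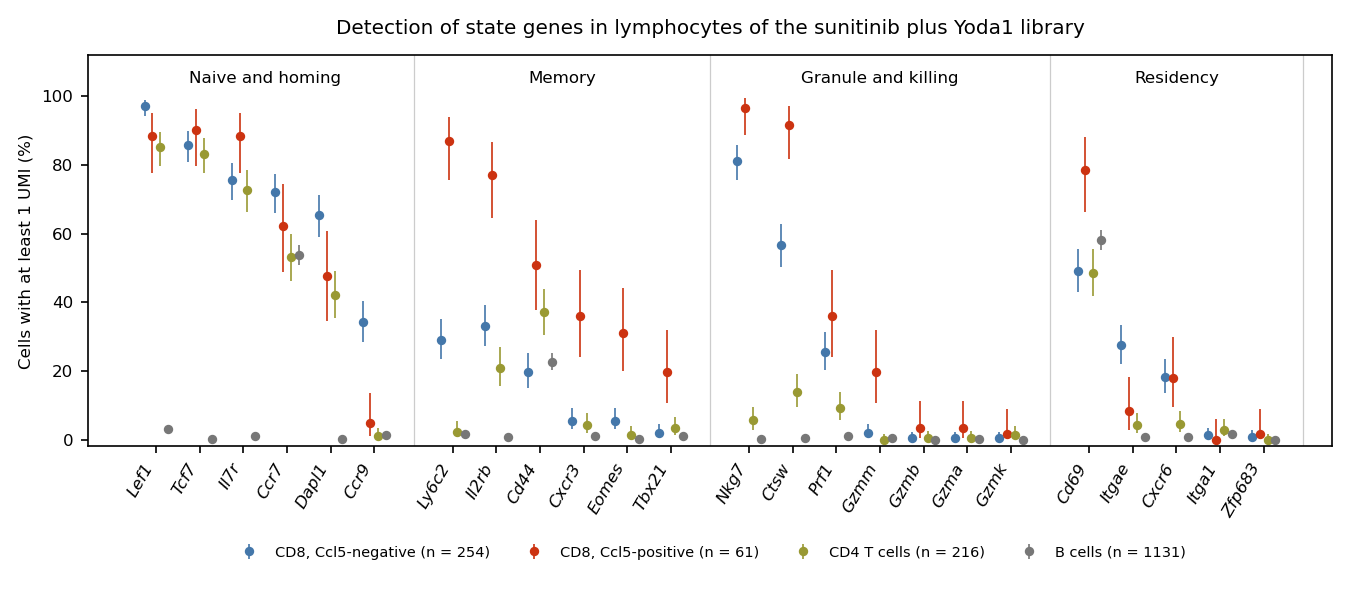
Share of cells with at least 1 UMI of each gene (vertical axis, percent) in Ccl5-negative and Ccl5-positive CD8 T cells, CD4 T cells and B cells of the library with both compounds, with exact 95% binomial intervals for counting error. Naive genes such as Lef1 are high in both CD8 sets, memory genes such as Ly6c2 are higher in the Ccl5-positive set (86.9% against 29.1%), and Gzma, Gzmb and Gzmk are near 0 in all sets.

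Memory features belonged to a smaller share of the cells. Ccl5, a chemokine whose transcript memory CD8 T cells hold ready, was found in 61 members (19.4%, 15.1 to 24.2), compared with 2.78% of CD4 T cells and 2.65% of B cells. The cells that held it were mostly well above 1 UMI, with a median of 10 and a highest of 278, and 10 of the 61 held 1 UMI. A single member supplied 17.2% of the 1619 Ccl5 UMIs. Ly6c2, a surface protein raised on memory cells and on part of the naive cells, was found in 40.3% (34.9 to 46.0) of members, 2.31% of CD4 T cells and 1.68% of B cells. Il2rb was found in 41.6% of members, 20.8% of CD4 T cells and 0.707% of B cells. Cd44, the classic surface marker of antigen-experienced T cells, was found in 25.7% of members (51.1 CPM), which is close to its 22.7% in B cells and below its 37.0% in CD4 T cells. The chemokine receptor Cxcr3 was found in 11.4%, and the T-box factors Eomes and Tbx21 in 10.5% and 5.40%. Of Cd44, Il2rb, Cxcr3, Ly6c2 and Eomes, 108 members held none, 95 held 1, 48 held 2 and 64 held at least 3.

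The members were therefore divided by the presence of Ccl5, and 61 positive cells were compared with 254 negative cells as summed UMIs. Ccl5 made the division and is not a result of it, and the cells share 1 library, so the ratios are descriptions. The positive cells were deeper, with a median of 10855 UMIs against 8024.5, and shares are therefore also given thinned. Of 8026 genes with at least 20 UMIs over both sets, 272 (3.39%) were at least 2-fold higher and 463 (5.77%) at least 2-fold lower in the positive cells, and the median log2 ratio was -0.03. A gene with few UMIs enters only when it is high in 1 of the sets, so counts over a list describe the genes that entered and not the whole list.

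Genes of the memory list other than Ccl5 lay on the positive side. Of its 19 genes, 18 others could be measured; 14 were at least 2-fold higher, 3 of them with under 20 UMIs in the negative cells, none was 2-fold lower, and their median log2 ratio was 1.45. Ly6c2 was found in 86.9% of positive and 29.1% of negative cells (65.6% and 11.8% at 1500 UMIs), a log2 ratio of level of 2.23 (2.03 to 2.43). Il2rb was found in 77.0% and 33.1% of cells (27.9% and 7.48% thinned), a log2 ratio of 2.20 (1.86 to 2.55). The lower share at equal depth shows how sparse these transcripts are. Cd44 was found in 50.8% and 19.7% (log2 ratio 1.29, 0.79 to 1.78) and Cxcr3 in 36.1% and 5.51% (2.61, 1.78 to 3.49). Eomes was found in 31.1% and 5.51% (2.40, 1.60 to 3.23), and Tbx21, the factor T-bet, in 19.7% and 1.97% from 20 UMIs in all (3.24, 1.70 to 5.05). The calcium-binding protein gene S100a6 (log2 ratio 3.0, 2.61 to 3.41) and Ahnak (2.02, 1.61 to 2.42), a very large scaffold protein, were higher as well, as was Bcl2, which protects from cell death (1.15, 0.99 to 1.31). The co-stimulatory receptor Cd27 had a ratio not separated from 0 (0.09, -0.27 to 0.44). Per cell, 38 of 61 positive and 26 of 254 negative cells held at least 3 of Cd44, Il2rb, Cxcr3, Ly6c2 and Eomes.

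At their own depth most Ccl5-positive cells still held naive genes. At least 2 of Ccr7, Lef1 and Tcf7 were found in 88.5% of positive and 93.3% of negative cells. Thinned to 1500 UMIs per cell, these shares were 26.2% and 41.7%, further apart than at own depth. Ccr7 was found in 62.3% of positive and 72.0% of negative cells, with a log2 ratio of -0.42 (-0.72 to -0.12). Dividing the cells by 2 or more of Ccl5, Nkg7, Il2rb, Cxcr3, Ly6c2 and Cd44 turned its sign, to 0.16. Memory cells that keep CCR7 are known as central memory cells, and a population that carries memory markers without infection is known in laboratory mice as virtual memory cells. These transcripts do not separate those types. Of the 13 naive genes, all of which could be measured, 4 were at least 2-fold lower in the positive cells, none 2-fold higher, and their median log2 ratio was -0.45. Ccr9 was lowest at -2.51 (-3.75 to -1.49; 4.92% against 34.3% of cells), followed by S1pr1 at -1.15, Igfbp4 at -1.11 and Actn1 at -1.07. Lef1 was lower by -0.78 (-0.94 to -0.63) though still present in 88.5% of positive cells at their own depth. When thinned, Lef1 was found in 54.1% of positive and 74.4% of negative cells, and S1pr1 in 13.1% and 37.8%. Il7r alone of the naive genes had a thinned share that was not lower in positive cells, at 39.3% against 39.0%. Tcf7 differed by -0.37 and Il7r by 0.33, and Klf2 by 0.07 (-0.08 to 0.22).

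**Figure D2:**
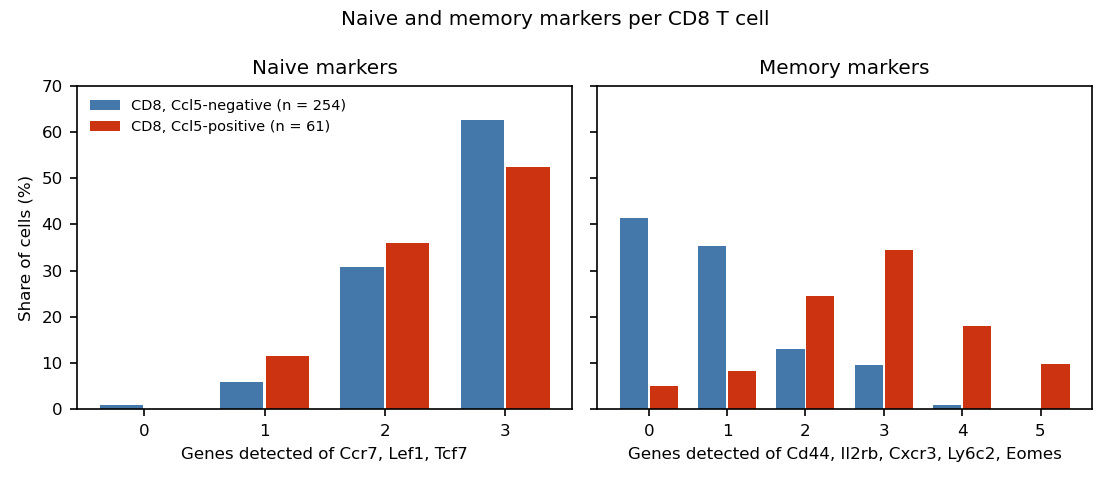
Share of Ccl5-negative (n = 254) and Ccl5-positive (n = 61) CD8 T cells (vertical axis, percent) by the number of naive markers (left, of 3) and memory markers (right, of 5) with at least 1 UMI, each cell at its own depth. All 3 naive markers were found in 62.6% of negative and 52.5% of positive cells, and for memory markers 41.3% of negative cells hold none compared with 4.92% of positive cells.

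Ly6c2 split the cells that lacked Ccl5. The division by both genes was chosen after the values above were seen, and it gave 180 members with neither gene, 74 with Ly6c2 alone, 53 with both and 8 with Ccl5 alone. Median depth was 7484, 9271.5 and 11186 UMIs in the first 3 of these, so CPM is given with each share. Ccr9 went from 41.7% of cells (89.5 CPM) with neither gene to 16.2% (20.2 CPM) with Ly6c2 alone and 1.89% (1.65 CPM) with both. The CD103 chain Itgae went the same way, from 30.6% (58.3 CPM) to 20.3% (31.7 CPM) and 1.89% (1.65 CPM). Both shares were lowest in the deepest cells. The 8 cells with Ccl5 alone did not follow: 4 held Itgae (133.5 CPM) and 2 held Ccr9 (93.5 CPM), the highest CPM of the 4 groups for both genes, from 10 and 7 UMIs. Cxcr3 went from 2.78% (5.55 CPM) to 12.2% (15.8 CPM) and 35.8% (52.9 CPM), and Eomes from 2.78% (3.47 CPM) to 12.2% (24.5 CPM) and 30.2% (54.5 CPM). Il2rb was at 50.6, 69.1 and 261 CPM, so most of its difference lay between the cells with and without Ccl5. Dapl1 was highest in the cells with Ly6c2 alone, at 85.1% (511 CPM), against 57.2% (385 CPM) with neither and 49.1% (228 CPM) with both. Lef1 was at 1044, 1070 and 582 CPM. The 10 cells with a sole Ccl5 UMI were like the other 51 positive cells for some genes and not for others. Ly6c2 was held by 9 of the 10 (685 CPM) and by 44 of the 51 (778 CPM), against 162 CPM in negative cells. Cd44 was at 33.0 CPM in the 10 and 106 CPM in the 51, against 37.9 CPM in negative cells, and S100a6 at 8.25, 336 and 34.6 CPM. Lef1 was at 907 CPM in the 10 and 548 CPM in the 51, and Ccr7 at 330 and 132 CPM.

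**Figure D3:**
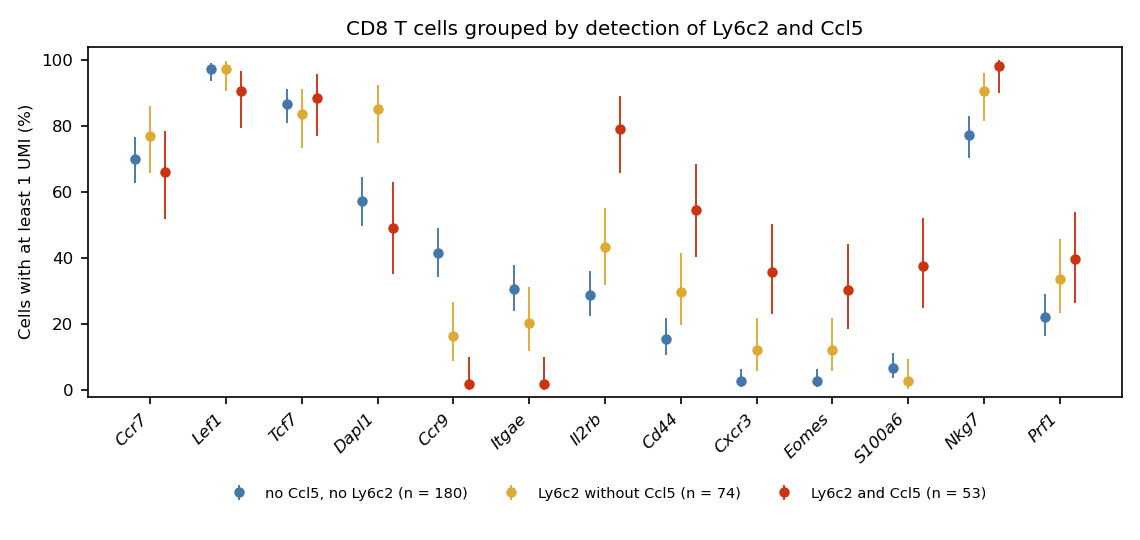
Share of CD8 T cells with at least 1 UMI of each gene (vertical axis, percent, exact 95% binomial intervals) for 180 cells with neither Ly6c2 nor Ccl5, 74 with Ly6c2 alone and 53 with both. Ccr9 steps down from 41.7% to 16.2% and 1.89%, and Cxcr3 steps up from 2.78% to 12.2% and 35.8%.

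Killing genes were present in part. Nkg7, a granule membrane protein, was found in 84.1% (79.6 to 88.0) of members at 402 CPM, 5.56% of CD4 T cells and 0.177% of B cells. The lysosomal protease gene Ctsw was found in 63.5% and Cst7, which encodes the protease inhibitor cystatin F, in 38.1%. Klrd1, which encodes CD94, a partner chain of the NKG2 receptors, was found in 67.0% of members and 6.94% of CD4 T cells. The pore-forming Prf1 was found in 87 members (27.6%, 22.8 to 32.9), 9.26% of CD4 T cells and 0.973% of B cells, mostly at 1 UMI (67 of the 87), with a highest of 4. Granzymes, the proteases that enter through those pores, were almost missing. Any of Gzma, Gzmb or Gzmk was found in 7 members (2.22%, 0.898 to 4.52), 4 of them with Ccl5. Their 33 UMIs came to 24 of Gzma, of which 22 were in 1 cell, 3 of Gzmb in 3 cells and 6 of Gzmk, of which 5 were in 1 cell. Gzmm, a granzyme of innate-like lymphocytes, was found in 17 members (5.40%). Ifng was found in 10 members and Tnf in 5.71%.

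Ccl5-positive cells held more of some killing genes. Of 15 listed genes 13 could be measured, 6 were at least 2-fold higher, 4 of them with under 20 UMIs in the negative cells, none was 2-fold lower, and the median log2 ratio was 0.88. Gzmm (2.65, 1.74 to 3.62), Fasl (3.0, 1.95 to 4.15), the ligand of a death receptor, and the granzyme inhibitor Serpinb9 (2.10, 1.39 to 2.83) were higher on the log2 scale, as was Ctsw (1.12, 0.83 to 1.41). At 1500 UMIs per cell the Ctsw ratio was 0.68 (-0.29 to 1.57), which is below 2-fold and not separated from 0. Ifng had a log2 ratio of 2.65 (1.25 to 4.2), with 14 UMIs in positive and 7 in negative cells. The Gzma ratio of 6.17 rests on the 1 cell above. Nkg7 differed by 0.88 (0.70 to 1.06), with 96.7% of positive and 81.1% of negative cells, which became 41.0% and 39.0% at 1500 UMIs. Prf1 was not separated from 0 (0.39, -0.24 to 0.99), nor was it when thinned (1.21, -0.07 to 2.40). Of 8 genes listed for short-lived effector cells, 7 were found in under 10% of members. The exception was Klf3, a transcription factor gene found in 67.6% of members, 57.4% of CD4 T cells and 27.1% of B cells, which gave 199.9 of the 214 CPM of the list. Klrg1 and S1pr5 had 0 UMIs in 315 members, which allows a share of cells with a UMI of up to 0.952% when 3 counts are set for 0, or 1.16% as the upper end of the exact interval. Cx3cr1 was found in 1.59% of members and 1.59% of B cells, and Zeb2 in 1.90%, against 27.5% of B cells.

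Receptors of the natural killer gene complex were 5 of the 10 genes named highest in Ccl5-positive cells. Each of the 5 had at most 8 UMIs in negative cells and entered through the positive cells, so their number is no result. The share of this complex among all 8026 genes was not counted. The 10 genes with the highest log2 ratios among those in at least 10% of cells of 1 side were Ccl4 (6.51, 3.92 to 11.86), a chemokine, then Klre1 (6.24), Fcer1g (5.82), Klra7 (at least 5.74), Tmem163 (5.33), Klrk1 (5.03), Klra6 (at least 4.97), Gas7 (4.41), 1700025G04Rik (3.83) and Klrc1 (3.82). Klra7 was counted 51 times in 23.0% of positive cells and Klra6 30 times in 21.3%, both with 0 UMIs in 254 negative cells. Their ratios are bounds because 0 was set to 3 counts. Klrk1, which encodes the activating receptor NKG2D, had 83 UMIs in 24.6% of positive and 8 UMIs in 3.15% of negative cells. Klrc1 encodes the inhibitory receptor NKG2A, which pairs with CD94. The genes Klre1, Klra7, Klrk1, Klra6 and Klrc1 lie with Klrd1 and Klrc2 in 655418 bases of chromosome 6 (chr6:129577905-130233322, GRCm38). That span was set by the first and last of these 7 genes. The Klra genes are near-identical copies, and how the UMIs were assigned among them is uncertain.

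Cells with these receptors lay on both sides of the Ccl5 division. Any of Klra6, Klra7, Klre1, Klrk1, Klrc1 and Klrc2 was found in 37 members, and 27 of these also held Ccl5. Of the 37, 31 held Il2rb and 27 Ly6c2, and 34 held Cd8b1, 1 of the genes that chose the cells. Ncr1 or Klrb1c, markers of natural killer cells, was found in 3 and Trdc, the constant gene of the delta receptor chain, in 3. The 9 natural killer cell genes, several of them also in the killer receptor list, summed to 376 CPM in Ccl5-positive cells, none at 0, and to 19.7 CPM in negative cells, 2 at 0. The part that natural killer or gamma-delta cells among the members have in these ratios was not tested. Klrb1c had 19 UMIs in 4 members, 15 of them in 1 cell. Over the list of killer cell receptors, 8 of 14 genes reached 20 UMIs. For 6 of the 8 the negative cells held under 20, so these entered through the positive cells, and their number is no result about the list. The other 2 were Cd160, with 28 UMIs in positive and 22 in negative cells (log2 ratio 2.0, 1.14 to 2.87), and Klrd1, with 159 and 351 UMIs (0.51, 0.23 to 0.78). Dividing the cells instead by 2 or more of Ccl5, Nkg7, Il2rb, Cxcr3, Ly6c2 and Cd44 put 190 members on the higher side. Ccl5 is itself 1 of these 6 genes, and 96.7% of Ccl5-positive cells held Nkg7, another of them. Nearly all Ccl5-positive cells thus fell on the higher side by construction, so this division is no independent check. The log2 ratios were then 3.56 (0.95 to 8.92) for Klre1 and 3.08 (1.80 to 4.74) for Klrk1. Klra7 and Klra6 had 0 UMIs in Ccl5-negative cells, which all but fixed that they had none on the lower side. Their ratios are bounds of at least 3.06 and at least 2.30.

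The 10 genes lowest in the Ccl5-positive cells were Slamf1 (-4.37, -9.70 to -1.84), a receptor of lymphocyte adhesion and signalling, Tgfbr3 (-3.96), Plekho1 (-3.52), Mtss1 (-3.28), Trib2 (-3.10), Ifngr2 (-3.10), 1700062C10Rik (at most -3.09), Pdxp (-3.05), Iigp1 (-3.03) and Actn2 (-3.02). Ifngr2, the second chain of the interferon-gamma receptor, had the most UMIs of these, 215 in 48.4% of negative cells and 8 in 11.5% of positive cells (log2 ratio -4.33 to -2.09 as its interval). Dividing by 2 or more of 6 genes moved Ifngr2 to -0.78 (-1.17 to -0.38) and Tgfbr3 to -0.97 (-1.56 to -0.37). Slamf1 (-0.49, -1.24 to 0.27), Mtss1 (-0.51, -1.28 to 0.27) and Iigp1 (-0.29, -0.97 to 0.42) were then not separated from 0. At 1500 UMIs per cell Slamf1 had no UMI in positive cells, and its ratio is a bound of at most -0.68. The first chain, Ifngr1, went the other way, with a log2 ratio of 0.95 (0.72 to 1.17). Tgfbr3, a co-receptor for TGF-beta, was found in 23.2% of negative and 1.64% of positive cells, and Tgfbr2, the signalling chain, differed by -0.67 (-0.93 to -0.41). Iigp1 is an interferon-induced GTPase. Of 11 listed interferon response genes 8 could be measured. Of these, 4 were at least 2-fold lower, none 2-fold higher, and the median log2 ratio was -0.80. Among the 4, Isg15, Rtp4 and Isg20 had 4 UMIs each in positive cells and entered through the negative cells. Their number is therefore no result about the list. Ifi27l2a was at -1.44 (-1.87 to -1.05), while Bst2 (0.27, -0.21 to 0.73) and Ifi203 (-0.02, -0.33 to 0.28) were not separated from 0. Of 13 immediate early genes, all measured, 5 were at least 2-fold higher, 1 of them with under 20 UMIs in the negative cells. None was 2-fold lower, and the median was 0.78. Cd69 (1.07, 0.83 to 1.32), Zfp36 (1.28) and Nfkbia (1.23) were among the 5 higher, and Fos was at 0.36 (0.11 to 0.61). Of 7 red cell and platelet genes 5 were measured, with a median log2 ratio of -5.83. Without the 6 members rich in haemoglobin, none of which held Ccl5, the log2 ratio was -0.38 (-0.74 to -0.04) for Hbb-bs, while those of Hba-a1 (-0.05), Hba-a2 (-0.33) and Hbb-bt (0.13) were not separated from 0.

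**Figure D4:**
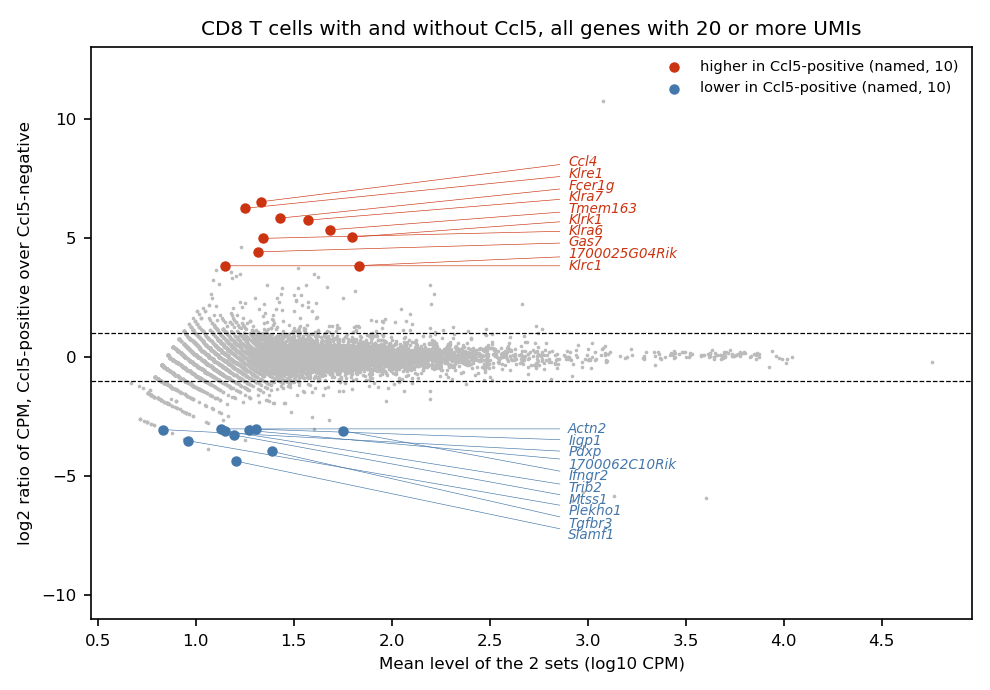
Log2 ratio of CPM in Ccl5-positive over Ccl5-negative CD8 T cells (vertical axis) against the mean level of the 2 sets (horizontal axis, log10 CPM) for 8026 genes, with dashed lines at a 2-fold difference and the named genes labelled. Klre1, Klra7, Klrk1, Klra6 and Klrc1 lie among the 10 named genes at the top (3.82 to 6.51), and Ifngr2 (-3.10) is the named lower gene with the most UMIs; the unlabelled point near the top is Ccl5, which made the division.

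Features of resident cells were incomplete. Itgae was found in 23.8% (19.2 to 28.9) of members and 4.17% of CD4 T cells, and Cxcr6, a chemokine receptor of tissue T cells, in 18.1% and 4.63%. Itga1 and Zfp683, which encodes the residency factor HOBIT, were each found in 0.952% of members. Cd69 was found in 54.9%, but B cells held it in 58.1% and CD4 T cells in 48.6%. Itgae did not travel with Ccl5: 8.20% of positive and 27.6% of negative cells held it (log2 ratio -1.62, -2.66 to -0.72). Of the 90 cells with Ccr9, 29 held Itgae (32.2%), compared with 20.4% of the cells without Ccr9. Cxcr6 was found in 18.0% of Ccl5-positive and 18.1% of Ccl5-negative cells. Itgae is also expressed by part of the naive CD8 T cells. Of the 8 residency genes 6 could be measured in the Ccl5 comparison, of which 1 was at least 2-fold higher (Cd69) and 1 lower (Itgae), with a median log2 ratio of -0.10.

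Most inhibitory receptors listed were rare, and Ctla4 was not. Pdcd1, the gene of PD-1, was found in 1.27% of members, Lag3 in 1.27% and Havcr2 in 0.317%, and Tigit in 5.08%. Tox, a factor known both from T cell development and from exhausted cells, was found in 81.9% of members and 83.3% of CD4 T cells. Ctla4 was found in 28.6% of members (103 CPM), 43.5% of CD4 T cells and 5.57% of B cells. Members with Mki67 or Top2a were few as well: 14 held either gene and 1 held both. Of the 10 listed cell division genes, 8 were found in under 10% of members. The others were Hmgb2, in 52.7% of members and 60.2% of CD4 T cells, and Pcna, in 41.6% and 35.6%.

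Compared with the CD4 T cells of the library, the members differed by the lineage programme. The 2 sets were chosen by Cd8a, Cd8b1 and Cd4, so this contrast is in part fixed by the choice and the ratios are descriptions. Of 9125 genes with at least 20 UMIs over both sets, 283 (3.1%) were at least 2-fold higher and 579 (6.35%) at least 2-fold lower in the CD8 T cells, with a median log2 ratio of -0.11. Leaving mitochondrial and ribosomal protein genes out of the totals moved every ratio by 0.13. Runx3, the factor that sets the CD8 fate, was found in 66.7% of CD8 and 25.0% of CD4 T cells (log2 ratio 1.83, 1.47 to 2.20). Zbtb7b, its counterpart ThPOK in the CD4 fate, had 0 UMIs in the members and 42 in CD4 T cells, a log2 ratio of at most -4.56. Of 8 genes of the CD4 and regulatory list 7 could be measured without Cd4 itself, and those 7 were at least 2-fold lower (median -4.76). All of the 7 but Ctla4 and Ikzf2 had under 20 UMIs in the members, and so entered through the CD4 T cells. Foxp3 (-6.86, -12.19 to -4.34), Il2ra (-5.60) and Tnfrsf4 (-5.24), genes of regulatory T cells, and Cd40lg (-4.76, -5.69 to -3.96), the helper ligand, were among them. The transcription factor Maf (-4.88), the sialyltransferase St8sia6 (-6.45), Pdlim4 (-6.66) and Cd83 (-6.08) were also among the 10 lowest.

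The genes highest in CD8 over CD4 T cells were Ly6c2 (6.19, 5.15 to 7.51), Bend4 (5.76, 4.2 to 8.05), Gm44174 (at least 5.68), Ccr9 (5.48, 3.61 to 8.54), Plac8 (5.16), Lcn4 (5.07), Cxxc5 (4.83), Nkg7 (4.03, 3.58 to 4.52), Cd160 (3.89) and Gm43698 (at least 3.75). Bend4 was found in 46.7% of CD8 and 1.39% of CD4 T cells, and its ratio between Ccl5-positive and negative members was not separated from 0 (log2 ratio -0.09, -0.52 to 0.32). Gm44174, a long intergenic RNA gene, had 259 UMIs in 41.0% of members and none in CD4 T cells. It lies at chr6:71353035-71373284 on the plus strand, between Cd8b1 (chr6:71322788-71337494) and Cd8a (chr6:71373427-71379173), and ends 143 bases before Cd8a starts. Its UMIs and those of transcripts from Cd8a that begin upstream cannot be told apart in these counts. Here too a count over a list describes the genes that entered and not the whole list. In the cytotoxic list 7 of 13 measured genes were at least 2-fold higher in the members, none 2-fold lower, and the median was 1.23. Of those 7, 3 had under 20 UMIs in CD4 T cells. The naive list had 1 of 13 genes 2-fold higher (Ccr9, with 2 UMIs in CD4 T cells), none 2-fold lower and a median of 0.02. The memory list went both ways, with 5 of 18 measured genes higher, 3 of them with under 20 UMIs in CD4 T cells, and 5 lower. Its lower genes included S100a4 (-3.14, -3.59 to -2.71) and Ly6a (-2.45, -2.87 to -2.04), and its higher genes Ly6c2 and Eomes (2.54, 1.34 to 4.05). Of 9 measured cell division genes 6 were at least 2-fold lower in CD8 than in CD4 T cells, Mki67 at -3.52 (-4.64 to -2.55). Among these, Mki67 (10 UMIs), Birc5 (18 UMIs) and Cdk1 (12 UMIs) had under 20 UMIs in the members. Piezo1, the channel that Yoda1 opens, had 116 UMIs in 28.9% (23.9 to 34.2) of members, and was found in 12.0% of CD4 T cells and 14.2% of B cells. Its level in CD8 over CD4 T cells had a log2 ratio of 1.10 (0.53 to 1.72), and at 1500 UMIs per cell the shares were 7.62%, 2.31% and 4.28%.

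**Figure D5:**
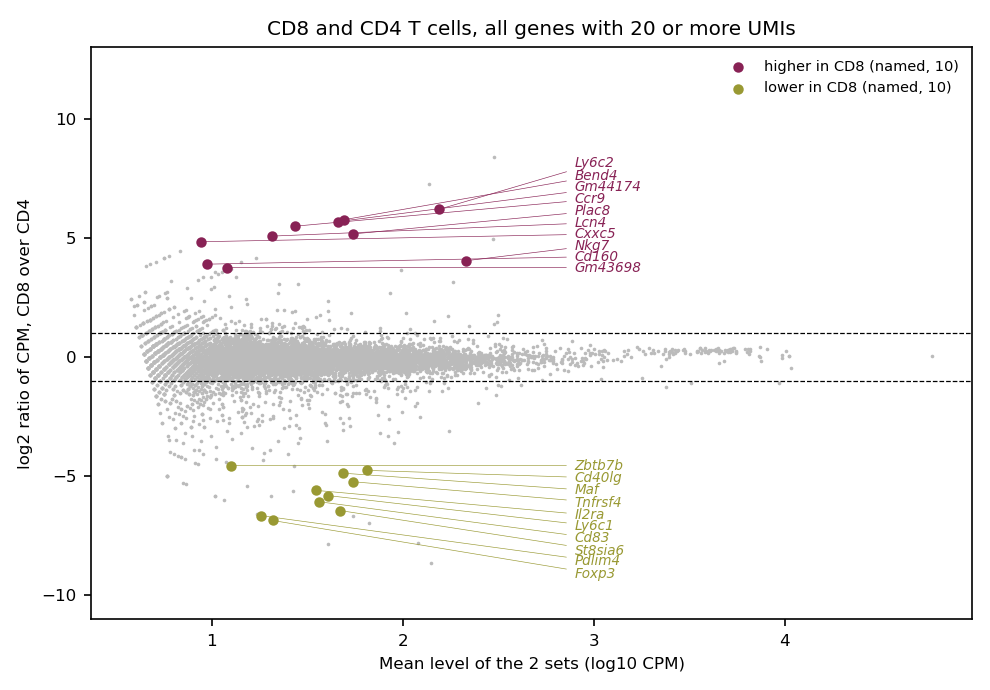
Log2 ratio of CPM in CD8 over CD4 T cells of the library with both compounds (vertical axis) against the mean level of the 2 sets (horizontal axis, log10 CPM) for 9125 genes, with dashed lines at a 2-fold difference and the named genes labelled. Ly6c2 (6.19) tops the higher genes and Foxp3 (-6.86) is the lowest of the lower ones.

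The closely related gene Ly6c1 did the reverse of Ly6c2. It had 4 UMIs in 1.27% of CD8 T cells and 134 UMIs in 34.3% of CD4 T cells, a log2 ratio of -5.82 (-7.72 to -4.43). The genes lie near each other on the minus strand of chromosome 15, Ly6c1 at chr15:75044018-75048830 and Ly6c2 at chr15:75108158-75111970. Over the last 500 bases of their longest coding transcripts, where a 3' library reads, 484 of 493 aligned bases (98.2%) were the same. How reads of the 2 genes were assigned is therefore uncertain, and the counts as deposited divided almost wholly by lineage. Their promoters (RefSeq, GRCm38.p6, 250 bases before to 50 after the start) are less alike, with 208 of 266 aligned bases (78.2%) identical, and are shown because the pair parts between the lineages. The promoter of Nkg7, the killing gene found in 84.1% of members and 5.56% of CD4 T cells, is shown with them. Capitals mark matches to a RUNX motif (TGTGGTT or, on the other strand, AACCACA) in Ly6c2 and to a T-box motif (AGGTGTG or CACACCT) in Nkg7. The windows are chr15:75111922-75112221 (minus strand) for Ly6c2, chr15:75048788-75049087 (minus strand) for Ly6c1 and chr7:43436888-43437187 (plus strand) for Nkg7.
Ly6c2: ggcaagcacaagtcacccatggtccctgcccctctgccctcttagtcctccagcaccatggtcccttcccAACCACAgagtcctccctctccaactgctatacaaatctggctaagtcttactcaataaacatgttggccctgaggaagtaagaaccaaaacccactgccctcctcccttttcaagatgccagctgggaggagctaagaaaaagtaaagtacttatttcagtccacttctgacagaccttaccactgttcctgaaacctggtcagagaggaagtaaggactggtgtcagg
Ly6c1: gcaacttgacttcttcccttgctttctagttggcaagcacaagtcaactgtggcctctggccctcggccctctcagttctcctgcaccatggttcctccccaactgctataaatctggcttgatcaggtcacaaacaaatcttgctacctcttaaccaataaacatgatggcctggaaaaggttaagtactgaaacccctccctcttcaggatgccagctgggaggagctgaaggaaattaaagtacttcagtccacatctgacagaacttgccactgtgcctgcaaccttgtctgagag
Nkg7: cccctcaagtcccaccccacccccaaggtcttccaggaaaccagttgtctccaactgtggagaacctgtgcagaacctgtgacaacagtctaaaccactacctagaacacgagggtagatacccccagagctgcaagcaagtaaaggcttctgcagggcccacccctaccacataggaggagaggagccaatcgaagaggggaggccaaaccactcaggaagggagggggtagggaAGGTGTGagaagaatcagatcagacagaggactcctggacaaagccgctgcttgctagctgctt
The RUNX match in Ly6c2 begins at -180 from the start, and the T-box match in Nkg7 at -14, and the window of Ly6c1 holds neither motif. Of 32851 promoters in the table, 5.27% held the RUNX motif and 5.84% the T-box motif. Among the 10 genes highest in CD8 over CD4 T cells, 7 had promoters in the table (10 windows, some overlapping within a gene). The RUNX motif was in 5 windows (Cd160, Ly6c2, Plac8) and the T-box motif in 2 (Nkg7, Plac8). A TCF and LEF motif (CTTTGA or TCAAAG), held by 5257 of the 32851 promoters, was in 2 (Cd160, Lcn4). In 10 windows of Ccl5 and genes named higher in Ccl5-positive cells, 2 held the RUNX, 0 the T-box and 4 the TCF and LEF motif. In that order the counts were 1, 1 and 0 of 7 windows of genes named lower there. They were 3, 1 and 0 of 7 for the memory list. No test of these counts was made. A match of letters is not a bound site.

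The T cell receptors of the members were of many kinds as far as could be seen. A 3' library reads few variable segments, and a Trbv gene was found in 62 members, of which 2 held more than 1. Those cells used 19 of 35 Trbv genes in the matrix, led by Trbv13-1 in 9 cells, Trbv2 in 7 and Trbv13-2 in 6. A Trav gene was found in 67 members from 36 of 128 genes, led by Trav16n in 10. B cells held none of either. Trbc1, the constant gene of part of the beta chains, was found in 62.2% of members, 50.8% of those with Ccl5 and 65.0% of those without.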

How the data were processed

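Droplet 3' single-cell libraries of digested arteries were read by 10x Genomics Chromium, per the labels' protocols. The deposited matrices hold raw UMI counts per gene (32285 rows) and barcode, made by the authors with Cell Ranger 6.0.0 (vehicle, sunitinib) and 7.1.0 (sunitinib with Yoda1), per the file headers, on mm10, per the submitters' processing notes. The sources used here do not say whether intronic reads were counted. UMIs of each cell set were summed and given as CPM. Shares carry exact Clopper-Pearson intervals, and log2 ratios the exact conditional binomial interval (Python 3.11.15, scipy 1.17.1). Where 1 side had no UMI, 3 stood in for it and the ratio is a bound. Genes needed 20 UMIs over both sets, and a fold of 2 stands for called. No test was made, since each group is 1 library. No doublet caller was run. The rule itself leaves out cells with genes of another lymphocyte, and the tenth of members with most UMIs was left out as an alternative. B cells were those with Cd79a or Ms4a1 and under 2 of the 5 T cell genes. Barcodes were shared with 1 vehicle and 5 sunitinib cells, 1 of them a member's. Named genes were the 10 highest and 10 lowest by ratio among genes in at least 10% of the cells of 1 side whose interval excludes 0, leaving out mitochondrial, ribosomal, haemoglobin, immunoglobulin, receptor segment and sex-linked genes and those of the rule, and the genes of 25 lists. Some listed genes are not reported here and were left out of every list count. Members and lists were chosen with earlier results of these data known. The scripts were tested on simulated data. Positions are those of GENCODE vM21 on GRCm38 (51 of 51 names matched).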

Additional observations from a re-analysis of the deposited data

How the results depend on the processing

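Results were recomputed under 14 alternatives, 2 of them chosen after seeing the data (without haemoglobin-rich cells, without shared barcodes). No paired analysis was possible because each group is 1 library. With a mitochondrial limit of 5% the members numbered 162. Thinned to 1500 UMIs, Ccl5 was found in 14.3% of members, at least 2 of Ccr7, Lef1 and Tcf7 in 38.7% and any of Gzma, Gzmb and Gzmk in 0.317%. The 2-fold counts were then 157 higher and 336 lower for CD8 against CD4 and 130 higher for the Ccl5 division. With no minimum of UMIs they were 649 and 3176, and 3821 and 828. Dividing by 2 or more of 6 genes gave 170 lower genes and turned Ccr7 to 0.16. In all, 61 single-gene ratios were recomputed, and 749 of the 750 values kept their side of 0, with 696 inside the main interval. This tally overstates stability. The stricter minimum of UMIs per cell left out no cell, as the lowest held 2592 (CD8) and 2441 (CD4) UMIs. Dropping the minimum of UMIs per gene cannot change a gene's ratio. Most of these genes were also named for their extreme ratios in the same data. Detection of 1 UMI depends on depth, so a gene not found in a cell is not shown to be absent from it.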

Other observations

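Ighm, the heavy chain gene of IgM, was found in 64.8% of the CD8 T cells (386 UMIs, 137 CPM), 57.4% of CD4 T cells and 95.5% of B cells. Igkc, the kappa light chain gene, was found in 10.5% of the CD8 T cells with 56 UMIs. The members thus held 6.89 UMIs of Ighm for each of Igkc and the B cells 0.332. CD4 T cells held 4.15. Cd74, which B cells hold in 98.7%, was found in 6.98% of members. No member held more than 7 UMIs of Ighm.

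Ikzf2, the factor Helios, was higher in Ccl5-positive than negative CD8 T cells (log2 ratio 2.46), with 65 UMIs in 18.0% and 37 UMIs in 7.09% of cells. Xcl1, a chemokine that draws cross-presenting dendritic cells, was found in 26.2% of Ccl5-positive and 2.76% of negative cells, with a log2 ratio of 1.5 (0.71 to 2.29), and 19 of its 59 UMIs were in 1 cell. Trdc was found in 10 members.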
